A study of Saccharomyces cerevisiae BY4741 with 6 samples.

Results

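Of 5631 rows in the deposited count table of a budding yeast experiment, 39 were noncoding RNAs, chosen because their identifiers are neither systematic open-reading-frame names nor mitochondrial ones. Rows with identical counts were collapsed, which left 33 noncoding RNAs. They comprised 3 ribosomal RNAs, 2 transcribed spacers of the ribosomal DNA (rDNA), 15 small nucleolar RNAs (snoRNAs), 3 spliceosomal small nuclear RNAs, the RNA subunits of RNase P and RNase MRP, the RNA of the signal recognition particle, 3 regulatory RNAs, 2 antisense RNAs and 2 RNAs named RUF, for RNA of unknown function.

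The study compared 3 cultures of Saccharomyces cerevisiae BY4741 wild type with 3 cultures of a BY4741 strain in which PEX3 (YDR329C) is replaced by kanMX4, to ask whether a cell without functional peroxisomes has an altered transcriptome. Cells of both strains were of mating type MATa and carried the alleles ura3[delta]0, met15[delta]0, leu2[delta]0 and his3[delta]1. They were grown in shake flasks at 30 °C on mineral medium, first with 0.5% glucose and then through successive dilutions into 0.5% acetate, and were harvested at an optical density of 0.5. Each genotype was 1 strain from a collection, so the deletion and any other difference between the strains cannot be told apart. RNA was poly(A)-purified before strand-specific random-primed library synthesis. PEX3 itself was not analysed here.

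Most RNAs considered here are not messenger RNAs. RNA polymerase I copies the rDNA into a long precursor, from which 18S, 5.8S and 25S ribosomal RNA are cut while the external and internal transcribed spacers (ETS and ITS) are removed and degraded. The snoRNAs guide the chemical modification of ribosomal RNA or take part in its cleavage, C/D box members mostly in methylation and H/ACA box members in pseudouridylation. The mature forms of ribosomal RNA, snoRNA and most other structural RNAs carry no long poly(A) tail, whereas short oligo(A) tails are added to many nuclear precursors and by-products before the exosome degrades them. The levels given here are therefore levels in poly(A)-purified libraries, and the fraction of each RNA that passed the purification is not known.

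The library totals ranged from 6782522 to 9410398 counts. The noncoding RNAs took 0.301% of the counts in wild-type replicate 1 (95% Wilson interval 0.298 to 0.305), 0.336% in replicate 2 (0.332 to 0.341) and 0.278% in replicate 3 (0.275 to 0.281). In the deletion strain they took 0.365% in replicate 1 (0.361 to 0.369), 0.255% in replicate 2 (0.252 to 0.259) and 0.227% in replicate 3 (0.224 to 0.230). The intervals cover counting error only. The deletion libraries thus included both the highest and the lowest share, and the strains overlapped. With identical rows counted once, between 81.0% and 87.2% of the noncoding counts came from the rDNA, depending on the library. The noncoding RNAs outside it took 0.0454% ± 0.003 of the wild-type counts and 0.0475% ± 0.00463 of the deletion-strain counts (SD, n = 3 each). Expression is given below as CPM, the count of a row relative to its library's total, with TMM factors, which lay between 0.9913 and 1.007.

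The sequences behind the main results are shown first, in the R64 assembly of RefSeq, 5′ to 3′ on the strand of the RNA. The first is the last 300 bases of the 5′ external transcribed spacer ETS1 (chrXII:457733-458032, minus strand), the RNA with the clearest separation between the strains. Its capitals mark a run of 11 adenines.
ETS1: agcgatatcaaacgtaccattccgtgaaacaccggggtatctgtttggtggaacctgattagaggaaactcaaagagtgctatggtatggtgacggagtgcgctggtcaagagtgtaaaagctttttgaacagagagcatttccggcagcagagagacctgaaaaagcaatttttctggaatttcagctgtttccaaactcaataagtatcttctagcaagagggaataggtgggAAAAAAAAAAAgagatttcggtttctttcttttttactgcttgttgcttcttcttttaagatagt
The A run began at base 636 of the 700 bases of ETS1 and ended 54 bases before 18S. It was the longest A run in any of the 33 RNAs, whose others had runs of at most 8. A run of 11 or more adenines was found in 51 of 5548 nuclear rows of the table, or 0.92%, searched on the strand of the gene, and the median row had a longest run of 6. Whether such a run affects capture by poly(A) purification was not tested.

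The next set shows the 3′ ends of 5 H/ACA snoRNAs, because this kind made up most of the snoRNAs analysed. Capitals mark the last ACA, the box that gives the kind its name.
snR84 (chrIV:1492477-1492536, minus strand): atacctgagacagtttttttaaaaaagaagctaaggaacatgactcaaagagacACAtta
snR10 (chrVII:346191-346230, plus strand): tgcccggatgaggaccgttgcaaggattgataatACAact
snR42 (chrXI:559016-559055, minus strand): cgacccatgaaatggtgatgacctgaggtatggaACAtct
snR83 (chrXIII:626615-626654, plus strand): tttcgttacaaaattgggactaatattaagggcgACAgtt
snR30 (chrXII:199350-199389, plus strand): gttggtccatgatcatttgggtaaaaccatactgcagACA
In snR84, snR10, snR42 and snR83 the ACA stood 3 bases before the annotated end, and in snR30 it was the end itself. ACA at exactly 3 bases before the end was present in 7 of the 13 H/ACA snoRNAs analysed, in 14 of all 29 H/ACA snoRNAs annotated in R64 (48.3%) and in 1 of 45 C/D snoRNAs (2.2%).

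The last sequence is the 3′ end of the regulatory RNA SRG1 (chrV:322643-322762, plus strand), where SRG1 runs into the coding sequence of SER3. Capitals mark the start codon of SER3.
SRG1: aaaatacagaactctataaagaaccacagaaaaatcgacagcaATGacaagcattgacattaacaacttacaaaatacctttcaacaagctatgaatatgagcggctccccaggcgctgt
The annotations of SRG1 and SER3 share 77 bases on the same strand, so reads from there cannot be assigned to one of them.

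The comparison of the strains was made with edgeR's quasi-likelihood test over all 5628 rows that passed its filter on low counts, which all 33 noncoding RNAs passed. At a Benjamini-Hochberg adjusted p under 0.05, 0 of the 33 were called in either direction, where 0.178% of all rows were called and 0.0355% were called lower. With DESeq2 1 of the 33 was called, where 1.03% of all rows were called. The strains did not overlap for 3 of the 33 (9.09%), namely ETS1 and SRG1, lower in the deletion strain, and snR84, higher there, against 16.5% of all rows tested, 7.73% lower and 8.72% higher. The same RNAs were the 3 with an unadjusted p under 0.05, where all rows gave 9.08% in either direction, 3.93% higher and 5.15% lower. The first share was thus below the background and the second close to it. The median log2 fold change was 0.06, with 19 positive and 14 negative values, and over all rows it was 0.006, with 51.4% positive.

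The spacer ETS1 stood out in the size of its difference. ETS1 (YNCL0017C, chrXII:457733-458432, minus strand), the stretch before 18S that holds the binding site of the U3 snoRNA, measured 77.4, 74.8 and 80.9 CPM in wild-type replicates 1, 2 and 3. In the deletion strain it measured 49.8, 40.1 and 32.2 CPM. Every deletion library thus lay below every wild-type library, with a mean of 40.7 ± 8.82 CPM against 77.7 ± 3.06 CPM (SD, n = 3 each). The raw counts behind these values were 581, 511 and 763 in the wild type, against 402, 376 and 245 in the deletion strain. The log2 fold change was -0.93 (SE 0.15), or a level 0.524 times that of the wild type, with an unadjusted p of 0.000229 and an edgeR adjusted p of 0.0873, which does not pass. A fold change of at least this size in either direction was found in 38 of the 5628 rows (0.675%), and a p at least as small in 14 (0.249%). These numbers include the ETS1 row itself and its identical copy. DESeq2, run as an alternative, called ETS1 lower (log2 fold change -0.94, adjusted p 5.48e-06), as it did 0.568% of all rows. With edgeR and without deletion replicate 1, the deletion library with the highest ETS1 level, the log2 fold change was -1.1 and passed (edgeR adjusted p 0.0289). Leaving out any other single library gave edgeR adjusted p of 0.11 to 0.423, which does not pass. In bulk RNA, fewer cells with an RNA and less of it per cell cannot be told apart.

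For the ribosomal RNAs cut from the same precursor, the strains overlapped over all 6 libraries, and 1 library bore on that. The 18S row (RDN18, chrXII:455933-457732, minus strand), the RNA of the small ribosomal subunit, measured 627, 663 and 580 CPM in the wild type and 720, 502 and 475 CPM in the deletion strain, with a log2 fold change of -0.14 (SE 0.16 and edgeR adjusted p 0.787). The 25S row (RDN25, chrXII:451786-455181, minus strand), the main RNA of the large subunit, measured 1830, 2170 and 1660 CPM and 2330, 1540 and 1350 CPM, which on the log2 scale gave -0.12 with an SE of 0.20 (edgeR adjusted p 0.872). For both, deletion replicate 1 was the highest of the 6 libraries and deletion replicate 3 the lowest. Without deletion replicate 1, a library singled out from these same values, both remaining deletion libraries lay below all wild-type libraries. The log2 fold change was then -0.35 for 18S (SE 0.09, unadjusted p 0.00584, adjusted p 0.598 in edgeR) and -0.39 for 25S (SE 0.13, unadjusted p 0.0219, adjusted p 0.842 in edgeR). Because of that choice, neither these p-values nor the lack of overlap is a test of a strain difference. Without deletion replicate 2 the values were -0.06 and -0.04, and without deletion replicate 3 they were -0.03 and 0.04. The 5.8S row (RDN58, chrXII:455414-455571, minus strand) and the internal spacer ITS1 (chrXII:455572-455932, minus strand), which separates 18S from 5.8S, were counted too rarely for a firm statement. The 5.8S row held between 10 and 18 counts in a library and ITS1 between 11 and 37. Their log2 fold changes were 0.04 (SE 0.40) and -0.02 (SE 0.44).

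Because the rows of the precursor share its source, the spacer was also set against 18S within each library, per length. ETS1 reached 31.8%, 29.0% and 35.9% of the 18S level per kb in wild-type replicates 1, 2 and 3, and 17.8%, 20.5% and 17.4% in the deletion libraries. The groups did not overlap, with means of 32.2% ± 3.46 and 18.6% ± 1.7 (SD, n = 3 each). Deletion replicate 1, which had the most rRNA, had about the same ratio as deletion replicate 3, which had the least. Against 25S the ratio was 20.5%, 16.7% and 23.6% in the wild type, against 10.3%, 12.6% and 11.6% in the deletion strain, without overlap. The ratios reuse the counts of ETS1, an RNA singled out for its separation, so they are no independent support for its difference. Against ITS1, with its low counts, the ratio was 1870%, 1010% and 1570% in the wild type, while the deletion libraries had 560%, 881% and 1150%, so that the strains overlapped. Without deletion replicate 1 the mean ratio of ETS1 to 18S differed by -13.3 percentage points, and with it by -13.7. The ratio of 25S to 18S per kb was 160% ± 11.6 (wild type) and 162% ± 10.9 (deletion strain), and that of ITS1 to 18S was 2.28% ± 0.584 and 2.34% ± 0.828 (SD, n = 3 each). In the ratios of 25S and ITS1 to 18S the strains overlapped. The mean levels per kb in the wild type ran from 556 CPM per kb for 25S and 346 for 18S to 111 for ETS1, 9.48 for 5.8S and 7.93 for ITS1. The row for 5.8S is 158 bases long and that for ITS1 361. TAR1 (YLR154W-C), a protein-coding gene that lies on the opposite strand within 25S, measured 9.06, 16.1 and 11.8 CPM in the wild type and 15.6, 6.4 and 3.28 CPM in the deletion strain. Its strains overlapped (log2 fold change -0.54, SE 0.49, edgeR adjusted p 0.726), and like 25S it was lowest in deletion replicate 3. The sources used here do not say if strand entered the counting, so reads of TAR1 and 25S cannot be told apart.

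**Figure D1:**
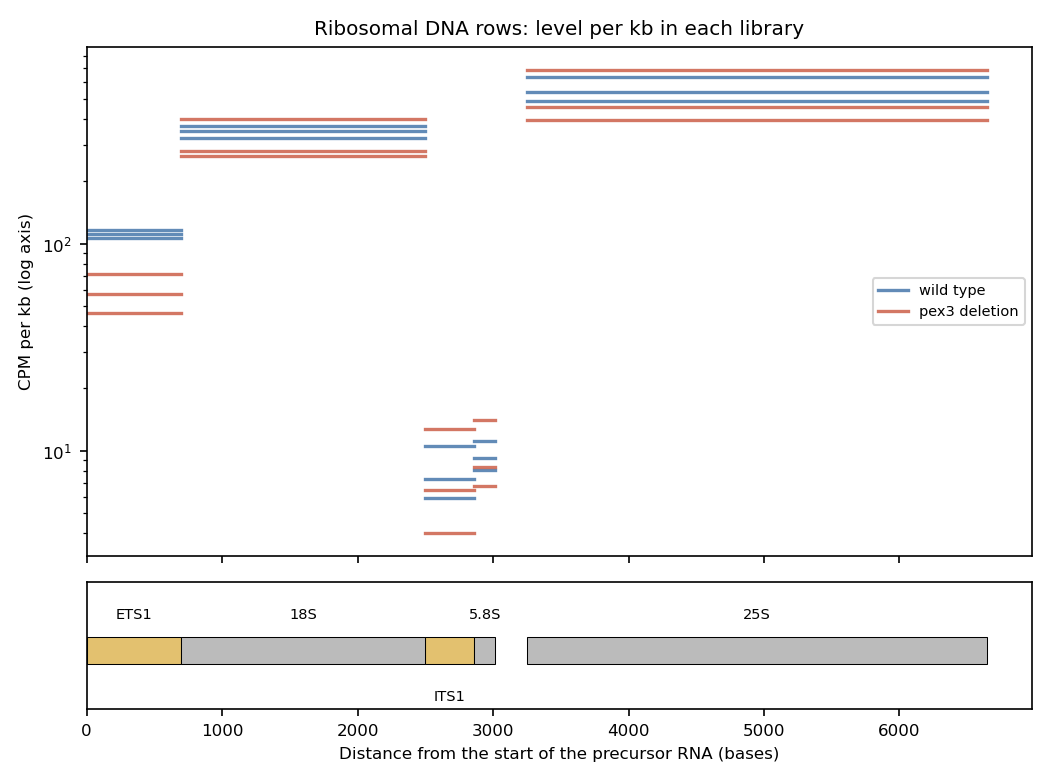
Level of each ribosomal DNA row in CPM per kb (log axis) along the precursor RNA, as distance from its start in bases, with 1 line per library (blue, wild type; red, pex3 deletion) over a map of the spacers (yellow) and ribosomal RNAs (grey). The 3 deletion libraries lie below the 3 wild-type libraries over ETS1 (means 58.1 and 111 CPM per kb), whereas the strains interleave over 18S, ITS1, 5.8S and 25S.

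Each rDNA row and RUF5 was present as a pair of copies with the same counts. The copies were identical in R64 over their whole length, 0 bases differing in each of the 6 pairs, so a read cannot be placed in one or the other. Whether each row holds all reads of the pair or a part of them is not known, which bears on absolute levels. The annotated precursor RDN37, not analysed here, covers each rDNA row over its whole length on the same strand. How reads were shared between RDN37 and these rows is not known. That sharing can bear on levels, on fold changes and on ratios between rDNA rows.

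**Figure D2:**
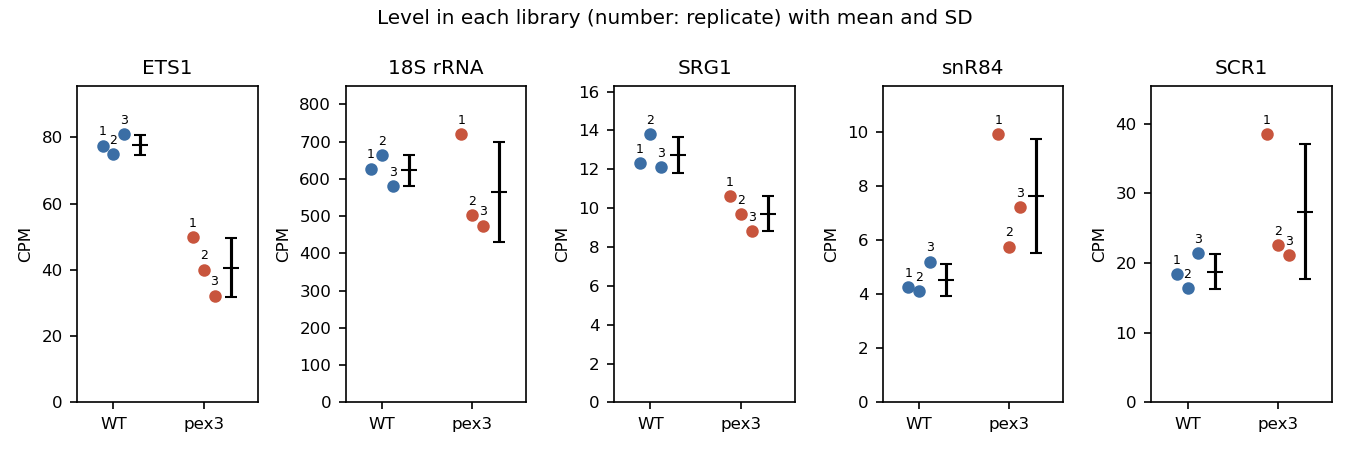
Level in CPM (axis from 0) of ETS1, 18S ribosomal RNA, SRG1, snR84 and SCR1 in each library, the number beside a point being its replicate, with the mean and SD of each strain in black (n = 3 each). The strains are apart for ETS1, SRG1 and snR84. Deletion replicate 1 is the highest deletion library in every panel, at 720 CPM for 18S and 38.5 CPM for SCR1.

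The snoRNAs followed. R64 annotates 29 H/ACA snoRNAs, 45 C/D snoRNAs and 2 genes for U3, whose kind the annotation does not state. Of these, 13 H/ACA snoRNAs, the C/D snoRNA snR4 and the U3 gene snR17a were among the rows, and the others were not analysed here. The analysed H/ACA snoRNAs were 183 to 1004 bases long with a median of 268, against 161 to 274 bases with a median of 191.5 for the other H/ACA snoRNAs. The C/D snoRNAs not analysed had a median of 96.5 bases. The analysed H/ACA snoRNAs were thus longer by the median, although the ranges of length overlapped. The set describes the C/D kind hardly at all.

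**Figure D3:**
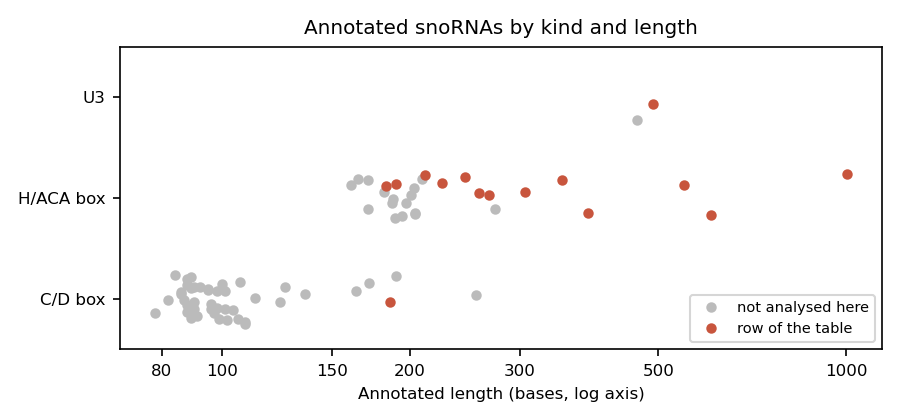
Annotated length in bases (log axis) of the 76 snoRNA genes of R64 by kind, with those that are rows of the table in red and those not analysed here in grey; the vertical scatter within a kind has no meaning. The 8 longest H/ACA snoRNAs that are rows exceed 250 bases, and 1 of 45 C/D snoRNAs, snR4 at 186 bases, is a row.

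snR84 (YNCD0032C, chrIV:1492477-1493026, minus strand), which guides a pseudouridine in 25S ribosomal RNA, measured 4.26, 4.1 and 5.2 CPM in the wild type and 9.91, 5.76 and 7.22 CPM in the deletion strain. All deletion libraries were above all wild-type libraries, and replicate 1 was the highest. The counts were low, 32, 28 and 49 against 80, 54 and 55. The log2 fold change was 0.74 (SE 0.26, unadjusted p 0.0213, edgeR adjusted p 0.491) and does not pass. Leaving out single libraries moved it between 0.506 (without deletion replicate 1, edgeR unadjusted p 0.0816) and 0.913 (without deletion replicate 2, edgeR unadjusted p 0.0118). RBA50, the gene 63 bases away on the opposite strand, had a log2 fold change of -0.07 (SE 0.09 and edgeR adjusted p 0.822).

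The 12 other H/ACA snoRNAs had log2 fold changes between -0.41 and 0.37, each with overlapping strains. The most abundant per kb was snR86 (chrXIII:762110-763113, minus strand), the longest H/ACA snoRNA of the set and a pseudouridylation guide for 25S. It measured 93.0, 73.8 and 70.1 CPM in the wild type and 85.2, 73.5 and 65.0 CPM in the deletion strain, a log2 fold change of -0.08 (SE 0.14 and edgeR adjusted p 0.870). snR30 (chrXII:198784-199389, plus strand), which is essential for the release of the 18S precursor, measured 31.6, 15.4 and 26.7 CPM and 32.7, 25 and 22.8 CPM, with 0.12 (SE 0.25) on the log2 scale. The wild-type libraries alone spanned 15.4 to 31.6 CPM and held the lowest library of the 6. snR10, which is needed for early cleavage of the precursor, measured 3.60, 3.07 and 4.35 CPM and 7.06, 4.16 and 1.97 CPM. The deletion libraries of snR10 thus enclosed all wild-type values. Its gene overlaps the open reading frame YGL088W by 216 bases on the same strand. snR44 (chrXII:856710-856920, plus strand), which lies within the gene RPS22B on the same strand, had the most negative value of the kind, -0.41 (SE 0.50), on 5 to 21 counts per library. Its host gene RPS22B, for a protein of the small ribosomal subunit, had a log2 fold change of 0.04 (SE 0.17).

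Of the C/D kind, snR4 (chrV:424698-424883, plus strand), which guides acetylation of a cytosine of 18S, held 9 to 24 counts per library and had a log2 fold change of 0.27 (SE 0.38). The U3 row snR17a (chrXV:780107-780596, plus strand), the snoRNA that pairs with ETS1 in the processome of the small subunit, held 10 to 26 counts and had a log2 fold change of -0.09 (SE 0.36). U3 is also encoded by SNR17B, not analysed here, and reads of such near-identical copies can be shared, so its value is uncertain. Of the 15 snoRNAs, 13 held fewer than 100 counts in every library.

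The direction of the snoRNA values moved with 1 library and with the low-count rows. Of the 13 H/ACA snoRNAs, 9 had positive log2 fold changes, with a median of 0.12, and without deletion replicate 1 it was 3 of 13, with a median of -0.16. Without deletion replicate 3 it was 11 of 13, with a median of 0.33. Among the 4 with a mean count of at least 50, 2 were positive, with a median of -0.01, and among the 16 noncoding RNAs above that mean, 7 were positive, with a median of -0.04. Deletion replicate 1 was the highest of the 6 libraries for 10 of the 15 snoRNAs and deletion replicate 3 the lowest for 8. Over the 33 noncoding RNAs, deletion replicate 1 was the highest for 19 and deletion replicate 3 the lowest for 15, where 24.7% of all rows had their highest value in the former and 11.1% their lowest in the latter. Without deletion replicate 1, 12 of the 33 were positive, with a median of -0.07. Libraries also differed in how level related to feature length. Over 5558 rows, which are not independent replicates, the rank correlation of length with a library's deviation from the row mean was 0.322, -0.131 and -0.381 in the wild type, against -0.15, -0.0763 and 0.16 in the deletion strain. Its part in the values above was not tested for single libraries, and with a length correction the 13 H/ACA snoRNAs had a median of 0.11 with 8 positive.

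**Figure D4:**
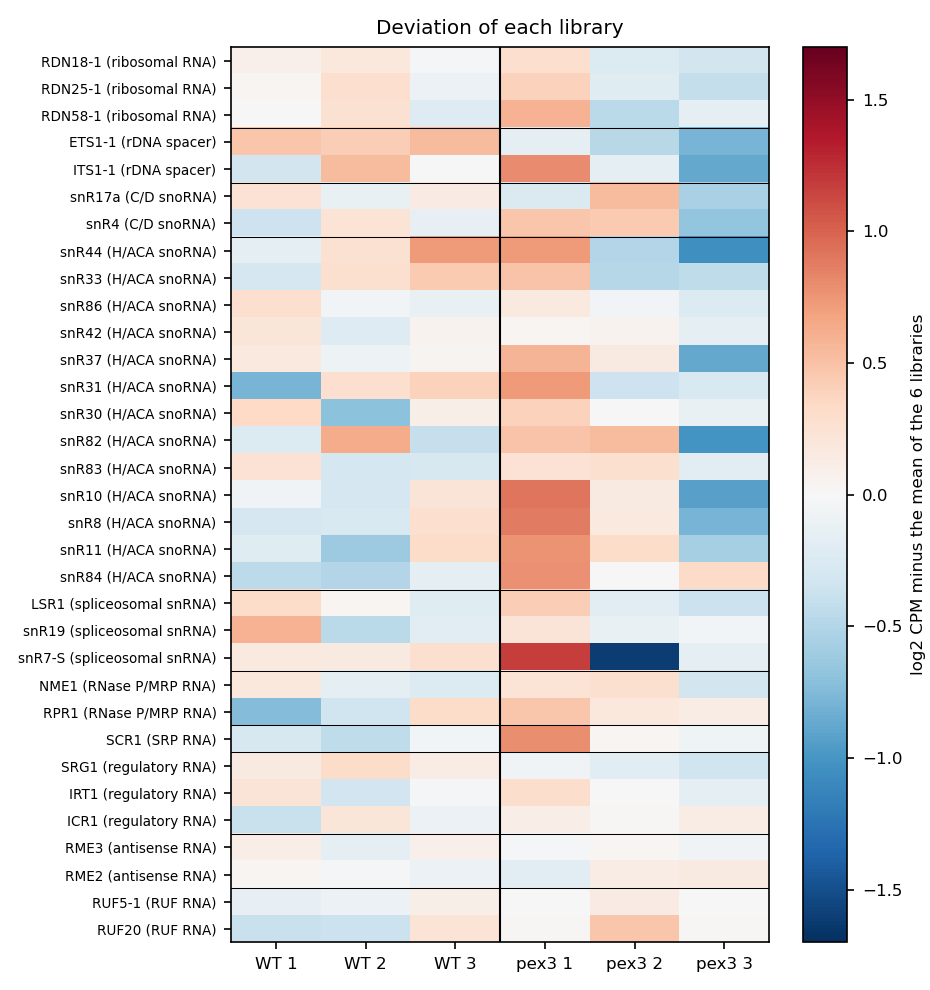
Log2 CPM of each noncoding RNA minus its mean over the 6 libraries (colour scale; red, above the mean; blue, below), with libraries in columns, RNAs in rows and lines between RNA classes and strains. The column of deletion replicate 1 is mostly red and that of deletion replicate 3 mostly blue, and ETS1 is red in all 3 wild-type libraries and blue in all 3 deletion libraries.

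Of the other structural RNAs, SCR1 and RPR1 had the largest differences after ETS1 and snR84, and neither passed the test. SCR1 (chrV:441987-442508, plus strand), the RNA of the signal recognition particle that directs nascent secretory proteins to the endoplasmic reticulum, measured 18.4, 16.4 and 21.4 CPM in the wild type and 38.5, 22.6 and 21.1 CPM in the deletion strain. Deletion replicate 1 stood well above the rest and the other libraries lay close together. Its log2 fold change was 0.54 (SE 0.24, edgeR adjusted p 0.539), and without deletion replicate 1 it was 0.22. RPR1 (chrV:117667-118035, minus strand), the RNA subunit of RNase P, which trims the 5′ ends of transfer RNA precursors, measured 3.33, 4.39 and 6.89 CPM and 7.68, 6.29 and 6.04 CPM, a log2 fold change of 0.43 (SE 0.29 and edgeR adjusted p 0.641). Leaving out single libraries moved it between 0.214 (without wild-type replicate 1) and 0.79 (without wild-type replicate 3). NME1 (chrXIV:585587-585926, plus strand), the RNA of RNase MRP, which cuts the ribosomal precursor in ITS1, had a log2 fold change of 0.16 (SE 0.31) on 13 to 24 counts per library.

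The 3 spliceosomal RNAs had values near 0 in the fit of all libraries, with SEs of 0.22 to 0.61. LSR1, the U2 RNA that pairs with the branch point (chrII:680688-681862, minus strand), measured 37.7, 31.0 and 26.3 CPM in the wild type and 40.6, 26.7 and 23.5 CPM in the deletion strain, a log2 fold change of -0.06 (SE 0.22). snR19, the U1 RNA that recognises the 5′ splice site (chrXIV:230105-230672, minus strand), measured 22.8, 11.0 and 13.3 CPM and 17.5, 13.8 and 14.6 CPM, a log2 fold change of -0.04 (SE 0.27). Its widest gap lay within the wild type, where replicate 1 stood above the others. snR7-S, the short form of U5 (chrVII:939494-939672, minus strand), lies wholly within its long form SNR7-L and held 4 to 24 counts, with a log2 fold change of -0.02 (SE 0.61).

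The regulatory RNAs act on a neighbouring gene in cis, so each is given with that gene. SRG1 (YNCE0017W, chrV:322212-322762, plus strand) is transcribed across the promoter of the serine synthesis gene SER3 and represses it. SRG1 measured 12.3, 13.8 and 12.1 CPM in the wild type and 10.6, 9.70 and 8.80 CPM in the deletion strain, so the strains did not overlap. Its log2 fold change was -0.38 (SE 0.15, unadjusted p 0.0388, edgeR adjusted p 0.523) and does not pass. SER3 (YER081W), which encodes 3-phosphoglycerate dehydrogenase, measured 850, 521 and 499 CPM and 655, 565 and 539 CPM. Its strains overlapped (log2 fold change -0.09, SE 0.20, edgeR adjusted p 0.909), and wild-type replicate 1 was the highest. Per kb, SRG1 reached 23.1 CPM in the wild type and 17.6 in the deletion strain, and SER3 reached 442 and 416. Because these rows share 77 bases on the same strand, the SRG1 values may hold reads of SER3. How large that part is, and whether it bears on the SRG1 fold change, was not tested.

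ICR1 (chrIX:393884-397082, minus strand) is transcribed across the promoter of FLO11, which encodes a cell-surface adhesin, and represses it. ICR1 measured 17.3, 25.8 and 21 CPM in the wild type and 24.3, 22.8 and 24.4 CPM in the deletion strain, a log2 fold change of 0.16 (SE 0.15 and edgeR adjusted p 0.741). FLO11 (YIR019C), 208 bases away, measured 15.9, 18.3 and 14.6 CPM and 12.4, 13.1 and 12.7 CPM. FLO11 was lower without overlap of the strains, as were 7.73% of all rows tested. Its log2 fold change was -0.35 (SE 0.14, unadjusted p 0.0412, edgeR adjusted p 0.523) and does not pass. For ICR1 the strains overlapped, and a link between ICR1 and FLO11 was not tested. ICR1 overlaps the RNA PWR1 by 941 bases on the opposite strand. IRT1 (chrX:605936-607424, minus strand), which in haploid cells represses the meiotic regulator gene IME1, measured 33.8, 23.3 and 28.7 CPM and 35.9, 29.0 and 26.0 CPM, a log2 fold change of 0.08 (SE 0.17). IME1 (YJR094C) measured 27.8, 20.1 and 19.1 CPM and 13.4, 15.9 and 22.2 CPM, a log2 fold change of -0.38 (SE 0.22 and edgeR adjusted p 0.609), with overlapping strains.

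The antisense RNAs RME2 and RME3 are made in haploid cells and block genes of the meiotic programme. RME2 (chrVII:141898-144120, minus strand), antisense to IME4, reached 56.4 CPM per kb in the wild type and 59.1 in the deletion strain. It measured 131, 126 and 119 CPM in the wild type and 112, 140 and 142 CPM in the deletion strain, a log2 fold change of 0.07 (SE 0.10 and edgeR adjusted p 0.844). RME3 (chrVII:33109-35013, minus strand), antisense to the synapsis gene ZIP2, measured 7.60, 6.30 and 7.42 CPM and 6.93, 7.14 and 6.70 CPM, a log2 fold change of -0.04 (SE 0.18). ZIP2 (YGL249W), which it covers over 1905 bases, measured 5.60, 4.54 and 7.42 CPM and 5.94, 6.93 and 7.48 CPM, a log2 fold change of 0.20 (SE 0.24). IME4 was not analysed here. The mating type was checked with a-specific and alpha-specific genes, of which 6 of the 9 listed were among the rows analysed. The a-specific genes STE2, BAR1 and ASG7 measured 234 to 277, 89.7 to 119 and 8.91 to 13.1 CPM over the 6 libraries. The alpha-specific genes STE3, SAG1 and MF(ALPHA)1 measured 25.9 to 32.4, 34 to 45.1 and 5.76 to 13.2 CPM, so none was at 0. Per kb over the 6 libraries, STE2 and BAR1 (198 and 60.3 CPM) lay above STE3, SAG1 and MF(ALPHA)1 (20.3, 20.7 and 21.5). ASG7, at 17.2 CPM per kb, lay below all of these. The markers analysed thus did not separate cleanly, and the stated mating type was not tested further.

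The strains overlapped for both RUF RNAs. RUF5 (chrVIII:212409-213118 for its first copy, plus strand), which overlaps the metallothionein gene CUP1-1 by 186 bases on the opposite strand, measured 30.8, 31.6 and 36.4 CPM in the wild type and 33.8, 37.2 and 33.9 CPM in the deletion strain. Its log2 fold change was 0.08 (SE 0.10, edgeR adjusted p 0.806). CUP1-1 (YHR053C) measured 13.1, 26.2 and 30.5 CPM and 25, 20.3 and 14.7 CPM, a log2 fold change of -0.22 (SE 0.31). RUF20 (chrVI:131061-131503, minus strand), which lies 79 bases from the coding sequence of the secretory GTPase gene SEC4, held 11 to 27 counts per library and had a log2 fold change of 0.31 (SE 0.32). SEC4 (YFL005W) had a log2 fold change of -0.15 (SE 0.09 and edgeR adjusted p 0.609).

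**Figure D5:**
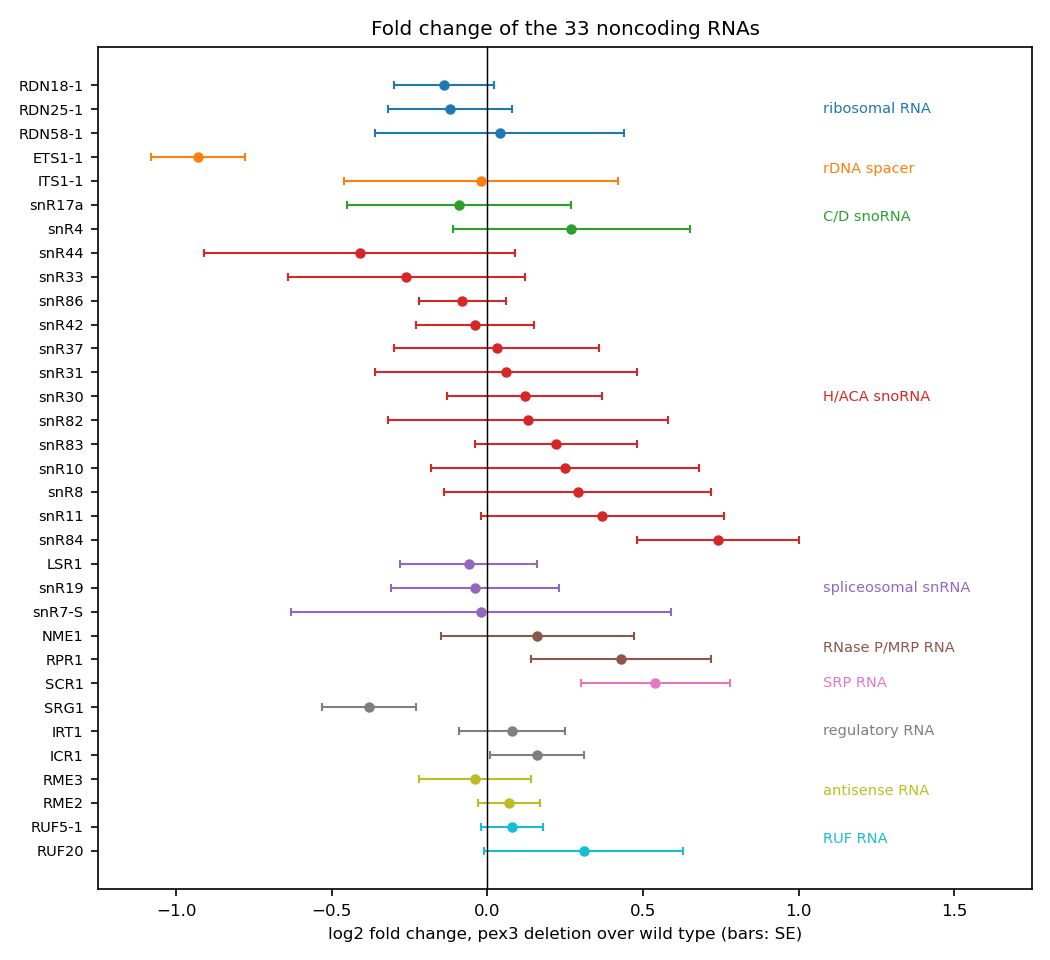
Log2 fold change of each of the 33 noncoding RNAs, deletion strain over wild type, with the SE as bars and colours for RNA classes; 0 means no difference. ETS1 at -0.93 is the value farthest from 0, snR84 at 0.74 is next, and the bars of most snoRNAs cross 0.

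The proteins that make, modify or degrade these RNAs were taken from 10 lists with 199 tested genes. Of them, 0 were called by edgeR (adjusted p under 0.05), against 0.178% of all rows, and 0 by DESeq2, against 1.03%. In edgeR, 12 higher and 1 lower had an unadjusted p under 0.05, together 6.53% against 9.08% of all rows. By direction, 6.03% were higher, against 3.93% of all rows, and 0.503% lower, against 5.15%. Their median log2 fold change was 0.10, with 151 positive, where all rows had a median of 0.006 with 51.4% positive. The 39 rRNA processing factors had a median of 0.17 with 38 positive, the 20 snoRNP proteins a median of 0.14 with 17 positive, and the 22 RNA polymerase I subunits and factors a median of 0.11 with 18 positive. Relative to the wild-type mean, the mean log2 CPM of the rRNA processing list was 0.07, -0.06 and -0.01 in the wild type, against 0.38, 0.09 and 0.00 in the deletion strain, so that deletion replicate 1 was again the highest library. Without deletion replicate 1 the list's median was 0.04, with 30 of 39 positive. The median was 0.20 with 38 positive without deletion replicate 2, and 0.25 with 39 positive without deletion replicate 3. In the fit without deletion replicate 1 the snoRNP list had a median of 0.07 with 15 positive, the RNA polymerase I list 0.05 with 17, and all 199 genes 0.03 with 129. In the fit without deletion replicate 3 these were 0.20 with 19, 0.12 with 16 and 0.12 with 155.

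Among single proteins, GAR1, a core protein of H/ACA snoRNPs, measured 142, 149 and 139 CPM in the wild type and 194, 166 and 154 CPM in the deletion strain, a log2 fold change of 0.26 (SE 0.10 and edgeR adjusted p 0.501). RPA190, the largest subunit of RNA polymerase I, had a log2 fold change of 0.32 (SE 0.15), and RRP5, a factor for cleavages of the ribosomal precursor, 0.32 (SE 0.15). MTR4, the helicase that feeds RNA to the nuclear exosome, measured 216, 187 and 197 CPM and 287, 231 and 217 CPM, a log2 fold change of 0.29 (SE 0.12 and edgeR adjusted p 0.523). The 22 exosome, TRAMP and Nrd1 complex genes had a median of 0.05 with 15 positive. NRD1, which directs early termination of noncoding transcripts, had the lowest value of that list, -0.33 (SE 0.14, edgeR adjusted p 0.539).

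The 21 genes of the poly(A) tail machinery had a median of -0.03 with 10 positive. HRP1, a cleavage factor subunit that marks polyadenylation sites, measured 391, 234 and 177 CPM in the wild type and 170, 181 and 178 CPM in the deletion strain. Its log2 fold change was -0.60 (SE 0.25, edgeR adjusted p 0.533), wild-type replicate 1 stood far above the other libraries, and the strains overlapped. The protein lists of RNase P and MRP (11 genes), the signal recognition particle (8), telomerase (6), snRNPs (30) and RNA polymerase III (20) had medians of 0.12, 0.02, 0.10, 0.04 and 0.08, with 9, 6, 5, 19 and 14 positive. Their extremes were POP3 at 0.36 and RPR2 at -0.25, SRP54 at 0.12 and SRP21 at -0.01, CDC13 at 0.33 and YKU70 at -0.16, MSL1 at 0.54 and LSM8 at -0.34, and RPO31 at 0.21 and PZF1 at -0.10. None of these passed the test.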

How the data were processed

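Poly(A)-purified RNA of 6 cultures was sequenced. Per the labels' protocols, cultures were biological triplicates. The authors' deposited table gives 1 unnormalised whole-number count for each feature and library. The submitters' processing notes name fastp 0.20.0, STAR, RSEM 1.3.3 and the build R64, without roles, so the counts may be rounded estimates. The smallest row total was 62; features absent from the table were not used here. RefSeq R64 annotation was matched by name to all 39 noncoding rows and 5561 rows in all. The edgeR 4.0.16 quasi-likelihood test (R 4.3.3) used TMM factors, filterByExpr and strain alone as design, on all rows with identical copies included; it was tested on simulated data. The SE is the log2 fold change divided by the square root of F. Alternatives were DESeq2 1.42.0, limma 3.58.1 voom, other factors and filters, collapsed copies, no rDNA rows, a loess length correction (span 0.3), the replicate block and leaving out libraries. Named were RNAs in classes of 3 or fewer, class extremes, those with an unadjusted p under 0.05, overlapping genes and list extremes; snR30, snR10 and the adjacent genes RBA50, FLO11, IME1 and SEC4 were added after values were seen. The members, RNA classes and protein lists were chosen with earlier results of these data known.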

Additional observations from a re-analysis of the deposited data

How the results depend on the processing

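The alternatives were run on all rows. DESeq2 called 1 noncoding RNA lower, ETS1, and 26 rows higher and 32 lower in all. Other settings with all libraries called 0 noncoding RNAs. The replicate block called 1 row higher and 0 lower, and the block with the length correction 1 lower. The block gave ETS1 an adjusted p of 0.352. The column headers give same-numbered libraries of both strains a common prefix, whose meaning is not stated. Same-numbered libraries deviated with correlations of -0.16, 0.23 and -0.26. With 3 libraries per strain, such correlations cannot show whether the cultures were paired. The cause of the changes between settings was not tested.

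Leaving out each library gave 0 noncoding RNAs higher, 0 to 1 lower (ETS1, without deletion replicate 1) and 1 to 4 with an unadjusted p under 0.05 (1 without wild-type replicate 2), and 3 to 12 rows higher and 0 to 5 lower in all. Over these fits ETS1 ranged from -1.102 to -0.793 on the log2 scale and its edgeR adjusted p from 0.0289 to 0.423. The median of the noncoding RNAs ranged from -0.066 to 0.142.

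Of 25 named RNAs, 12 changed sign in some fit, with log2 fold changes of up to 0.25 in size over all libraries. Over the fits without 1 library, IRT1 ranged from -0.058 to 0.212, ITS1 from -0.559 to 0.269, LSR1 from -0.331 to 0.086, 25S from -0.387 to 0.037, 5.8S from -0.324 to 0.259, RME3 from -0.12 to 0.006, snR17a from -0.485 to 0.106, snR19 from -0.238 to 0.321, snR7-S from -0.951 to 0.464, snR10 from -0.248 to 0.586, snR30 from -0.123 to 0.327 and snR86 from -0.187 to 0.053. Among those that kept their sign, 18S ranged from -0.351 to -0.028, RPR1 from 0.214 to 0.79, SCR1 from 0.219 to 0.694, snR44 from -1.043 to -0.124, snR4 from 0.099 to 0.536, RUF20 from 0.137 to 0.563, NME1 from 0.048 to 0.312, ICR1 from 0.034 to 0.307, RME2 from 0.008 to 0.17 and RUF5 from 0.037 to 0.165. SRG1 ranged from -0.452 to -0.319 and snR84 from 0.506 to 0.913, also without a change of sign. With voom, 5.8S was at -0.021 and snR19 at 0.02. The block put snR19 at 0.014, DESeq2 put snR7-S at 0.001, and the length correction put it at 0.024.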
